A study of Rattus norvegicus with 6 samples.

Results

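Dusp1, Dusp4, Dusp5, Dusp6 and Dusp9 encode dual-specificity phosphatases that act on MAP kinases, and their transcript levels were described in rat flat pluripotent stem (fPS) cells against rat embryonic stem (ES) cells. The 5 genes were taken by symbol from the 14217 genes named on the array, and they were chosen on the measured difference between fPS and ES cells, since earlier results of these arrays, among them the changes of Dusp9 and Dusp4, were known when the family was picked. Their levels are therefore given as a description, with no test. The 5 genes had 8 probe sets in all, with 2 for Dusp1, 3 for Dusp6 and 1 each for Dusp4, Dusp5 and Dusp9, and every one of the 8 is described. A probe set is a group of short probes that reads one stretch of a transcript, and its value is a linear intensity.

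The samples were 3 of fPS cells and 3 of ES cells, all from Sprague-Dawley rats, with 1 Affymetrix 3' expression array per sample. Both groups carried the same culture labels: a medium with 10 ng/ml human LIF, 3 μM CHIR99021 (an inhibitor of the kinase GSK3) and 0.5 μM PD0325901 (an inhibitor of MEK, the kinase that activates ERK), and maintenance on mouse embryonic fibroblasts, whose division was blocked with mitomycin C, in a medium with 15% serum. The labels do not say in which of these media the cells stood at harvest, and 0 arrays came from cells labelled as free of the MEK inhibitor, so its effect on these genes cannot be read here. They give no genotype, passage, clone or sex, do not say what sets fPS cells apart beyond the name, and describe the fPS samples as embryonic stem cells in 1 field. Nothing says that the 3 samples of a group were separate cultures, so the spread between them may be technical.

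MAP kinases (ERK, JNK and p38) are switched on by phosphorylation of a threonine and a tyrosine in the activation loop, and MAP kinase phosphatases remove both phosphates. Dusp1, Dusp4 and Dusp5 encode nuclear enzymes that are known as inducible genes. Dusp1 acts on p38 and JNK as well as ERK, Dusp4 on ERK and JNK, and Dusp5 on ERK. Dusp6 and Dusp9 encode cytoplasmic enzymes with a preference for ERK. Dusp6 is a classical feedback gene of FGF and ERK signalling, so its transcript is often used as a readout of that pathway, and in mouse ES cells Dusp9 has been described as a restraint on ERK downstream of BMP. ERK activity drives mouse ES cells out of the naive state, which is why MEK inhibitors are used in ES cell media.

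The promoter windows below are shown so that the sequence around the members' start sites can be compared, and their bearing on the transcript levels was not tested. RefSeq promoter windows of the rat assembly GRCr8, from 250 bases before to 50 bases after the start, were at hand for 4 of the 5 genes. The build behind the array's own annotation is not given in the sources used here. Each window is on the + strand. Capitals mark matches on either strand to any of 4 motifs: the CArG box of serum response factor (CC, 6 bases of A or T, then GG), TGACGTC of the cAMP response element, the E-box CACGTG and the ETS-type sequence CGGAAG.
Dusp1, chr10:17184603-17184902: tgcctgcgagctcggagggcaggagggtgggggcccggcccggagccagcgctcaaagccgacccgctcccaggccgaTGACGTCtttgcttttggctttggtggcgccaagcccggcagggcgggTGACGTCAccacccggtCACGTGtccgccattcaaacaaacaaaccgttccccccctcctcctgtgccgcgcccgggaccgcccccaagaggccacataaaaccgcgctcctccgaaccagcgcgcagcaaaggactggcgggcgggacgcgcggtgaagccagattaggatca
Dusp5, chr1:262543524-262543823: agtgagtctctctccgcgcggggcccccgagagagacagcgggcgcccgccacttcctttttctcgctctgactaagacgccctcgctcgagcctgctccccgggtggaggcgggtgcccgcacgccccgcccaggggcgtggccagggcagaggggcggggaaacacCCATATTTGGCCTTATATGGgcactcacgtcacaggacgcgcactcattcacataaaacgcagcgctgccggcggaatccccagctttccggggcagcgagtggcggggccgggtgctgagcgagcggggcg
Dusp6, chr7:35979354-35979653: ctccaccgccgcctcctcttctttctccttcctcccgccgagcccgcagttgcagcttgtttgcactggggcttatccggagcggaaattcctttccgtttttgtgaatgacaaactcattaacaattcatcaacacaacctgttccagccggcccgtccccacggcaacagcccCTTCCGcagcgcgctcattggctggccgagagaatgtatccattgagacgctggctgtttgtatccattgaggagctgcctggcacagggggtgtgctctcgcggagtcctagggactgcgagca
Dusp9, chrX:156502987-156503286: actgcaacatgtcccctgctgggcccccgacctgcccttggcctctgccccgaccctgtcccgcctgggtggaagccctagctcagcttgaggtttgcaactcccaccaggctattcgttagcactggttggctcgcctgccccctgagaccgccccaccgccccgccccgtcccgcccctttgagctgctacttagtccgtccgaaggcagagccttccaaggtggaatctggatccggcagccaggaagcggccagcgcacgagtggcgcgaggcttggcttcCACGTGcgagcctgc
Dusp4 is named here without a window.

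In the Dusp1 window, TGACGTC stood 172 and 124 bases upstream of the start, the nearer one as a full palindrome whose other strand also matched, and CACGTG stood 107 bases upstream. Of all 33469 windows of 300 bases, 3.22% held TGACGTC and 6.42% held CACGTG. The Dusp5 window held 2 adjoining CArG boxes, 82 and 72 bases upstream, a motif found in 1.64% of all windows. The window of the immediate-early gene Egr1 also held 2, at 105 and 83 bases upstream. The Dusp6 window held 1 CGGAAG match, 75 bases upstream on the other strand (16.6% of all windows), and that of Dusp9 held 1 CACGTG, 35 bases after the start. The Dusp2 window held 1 CACGTG too, 123 bases upstream, and those of Dusp7, Dusp10 and Spry1 held 0 of the 4 motifs. These are matches of letters and show neither binding nor a cause.

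Among the nuclear enzymes, Dusp1 and Dusp4 were higher in fPS cells and Dusp5 was not. The brighter Dusp1 probe set, 1368146_at, read 260.1, 483 and 509 on fPS arrays 1 to 3, against 66.4, 63.2 and 73.0 on ES arrays 1 to 3. The lowest fPS array was 3.56 times the highest ES array, and the ES values lay close together, while fPS replicate 1 was well below the other fPS arrays. The means were 417 ± 137 in fPS and 67.5 ± 5.03 in ES cells (SD, n = 3 each), a ratio of 6.18. On the scale of log2(intensity + 16), which was used for all changes and which understates those of dim probe sets, the change was 2.32 (SE 0.277).

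The other Dusp1 probe set, 1368147_at, pointed the same way at a lower signal. It read 65.2, 40.5 and 71.9 on the fPS arrays and 2.07, 20.4 and 10.4 on the ES arrays, a log2 change of 1.51 (SE 0.303). All 3 fPS arrays again lay above all 3 ES arrays. The ES values were under the median of every array, which ran from 36.2 to 45.3, and no detection calls were at hand to say which of them stood above background. The probe sets did not rank the fPS arrays alike, since replicate 2 was the lowest here.

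Dusp4 was dim in ES cells, and its log2 change had the smallest SE of the 8 probe sets. Its probe set read 52.0, 52.1 and 62.1 on the fPS arrays, against 13.2, 10.8 and 11.9 on the ES arrays. The groups did not overlap, and the lowest fPS array was 3.93 times the highest ES array. The means were 55.4 ± 5.76 in fPS and 11.96 ± 1.22 in ES cells (SD, n = 3 each), a ratio of 4.63, with a log2 change of 1.35 (SE 0.193). Because the ES values lie below the added 16, the size of this change depends on that constant, and it was 2.12 with 1 and 0.65 with 64 added.

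Dusp5, the nuclear phosphatase confined to ERK, had overlapping groups. It read 129, 91.6 and 112 on the fPS arrays and 149, 90.3 and 167 on the ES arrays. Both the lowest and the highest of the 6 values were on ES arrays, so the fPS values lay within the ES range. The log2 change was -0.23 (SE 0.262).

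Of the cytoplasmic enzymes, Dusp9 had the largest change of the 8 probe sets and Dusp6 was not higher by any of its 3. Dusp9 read 792, 779 and 498 on the fPS arrays, against 50.9, 63.4 and 101 on the ES arrays. The lowest fPS array, replicate 3, was 4.95 times the highest ES array, also replicate 3. The means were 689.8 ± 166 in fPS and 71.7 ± 26.0 in ES cells (SD, n = 3 each), a ratio of 9.62, with a log2 change of 3.02 (SE 0.286).

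The 3 probe sets of Dusp6 gave different changes. By 1377064_at it read 137, 58.8 and 60.1 on the fPS arrays, against 196, 122 and 149.7 on the ES arrays, a log2 change of -0.82 (SE 0.321). Only fPS replicate 1 reached into the ES range. By 1382778_at, the brightest of the 3, it read 157, 106 and 112 on the fPS arrays and 126, 120.4 and 120.4 on the ES arrays, a log2 change of 0.01 (SE 0.215). By 1387024_at it read 155, 79.1 and 67.0 on the fPS arrays and 101, 95.3 and 146 on the ES arrays, a log2 change of -0.22 (SE 0.308). In all 3, fPS replicate 1 was the highest fPS array, and the groups overlapped.

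**Figure D1:**
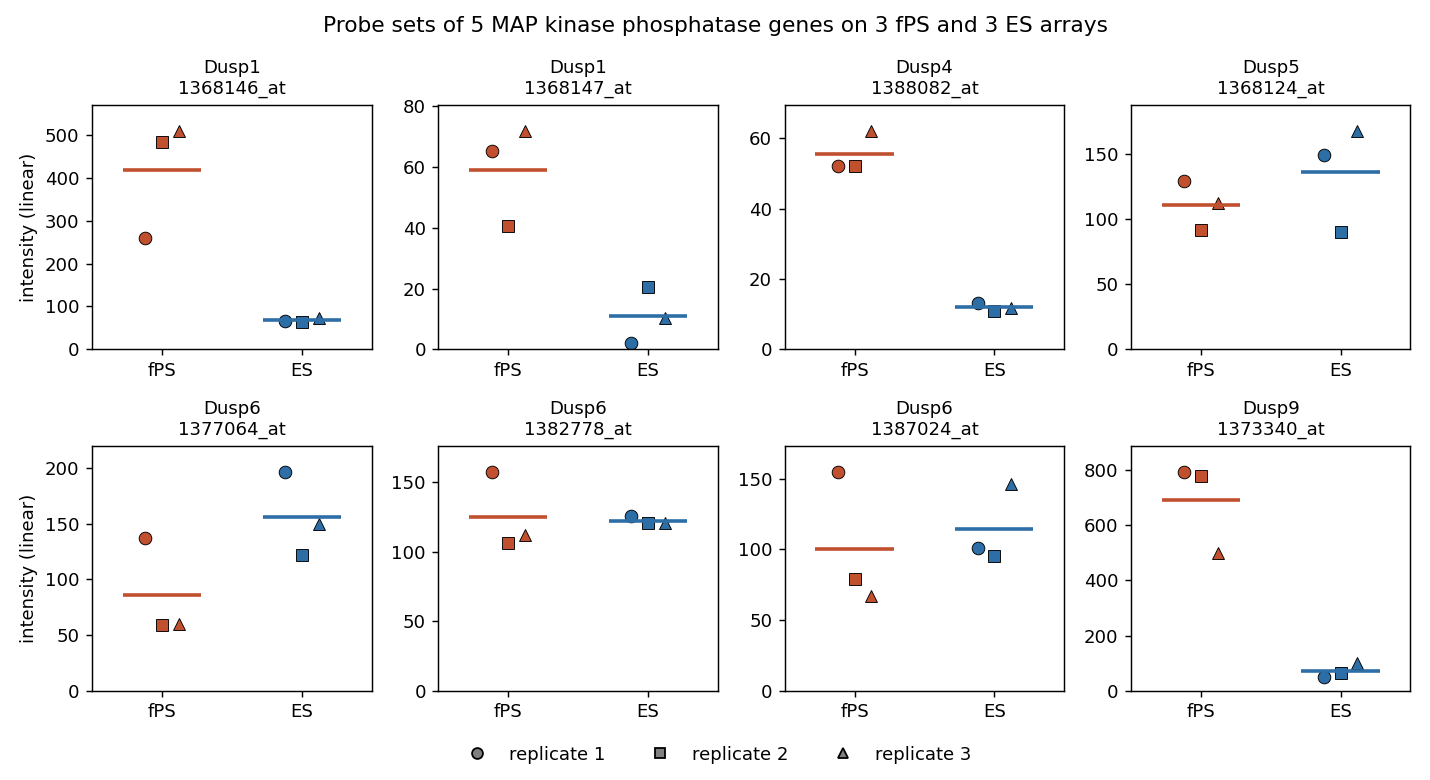
Linear intensity (y axis, from 0) of the 8 probe sets on the fPS arrays (left, orange) and the ES arrays (right, blue), with 1 point per array, its shape giving the replicate number, and a bar at the group mean. In both Dusp1 panels and those of Dusp4 and Dusp9 all 3 fPS points lie above all 3 ES points, while in the Dusp5 and Dusp6 panels the groups overlap.

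Counted together, 4 of the 8 probe sets, from 3 genes, had all fPS arrays above all ES arrays, as did 10.1% of all probe sets. With limma and Benjamini-Hochberg adjustment over all 31042 probe sets, 3 of the 8 had an adjusted p under 0.05 and were higher in fPS cells (1 each of Dusp1, Dusp4 and Dusp9), against 0.399% of all probe sets, and 0 were lower. Since this contrast was in view when the genes were chosen, nothing is read from these counts. The number past the threshold fell when any 1 array was removed. Of the 8, 2 passed once fPS array 1 was dropped, and 1 once fPS array 3 or ES array 2 was. None passed (0 of 8) once fPS array 2, ES array 1 or ES array 3 was dropped. Over all probe sets the number fell too, from 215 to between 0 and 162. It was 0 or 1 in the runs where 0 of the 8 passed, so that loss was not particular to these genes. Its cause was not tested. With each array left out in turn the log2 changes ran from 2.84 to 3.25 for Dusp9, from 1.28 to 1.38 for Dusp4 and from 2.15 to 2.62 for Dusp1 by its brighter probe set, while that of Dusp6 by 1382778_at lay on both sides of 0.

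The identity of the cells and the other cells they could hold were checked on these arrays. Of 12 ES cell markers, 10 were named on the array, and their summed intensity was 17485 to 22848 on the fPS and 19289 to 27701 on the ES arrays. Of these, Lin28a and Sox2 were lower on all fPS arrays than on any ES array, with log2 changes of -1.30 and -0.97. Dimmer probe sets of Sox2 had -1.23, -1.48 and -0.49, all with overlap. Klf5 was higher on all fPS arrays (0.32), while its other probe sets had 0.55, 0.32 and 0.28, all with overlap. Over all genes 22.6% had groups that did not overlap, so nothing is read from the separation of Lin28a, Sox2 and Klf5. By limma's threshold 0 of the 10 passed, where 0.570% of all genes were higher and 0.288% lower. The sum of 12 fibroblast markers, the feeder cell type, was 684 to 1855 on the fPS and 224 to 2459 on the ES arrays. The feeders were mouse cells and the probe sets are named for rat genes. How far this sum reads feeder RNA therefore cannot be told here. For 8 trophoblast markers the sum was 3634 to 5514 on the fPS and 3851 to 5009 on the ES arrays. Within the last list Cdx2, a trophoblast transcription factor, had 171 ± 64.5 in fPS and 684 ± 297 in ES cells (SD, n = 3 each), without overlap (log2 change -1.86, not past the threshold). The sum of 10 markers of extraembryonic endoderm was 1883 to 2906 on the fPS arrays and 703 to 1738 on the ES arrays, so it separated the groups in the same direction as Dusp1, Dusp4 and Dusp9. Most of this sum was Sparc and Lamb1, whose groups overlapped and which, like the fibroblast sum, were highest on replicate 3 of each group. The other 8 markers summed to 476 to 538 on the fPS and 205 to 235 on the ES arrays, again without overlap. Of the 10, by their brightest probe sets, Gata4, Sox17 and Foxa2 were higher on all fPS arrays (log2 changes of 1.05, 1.44 and 0.86). These 3 of 10 are near the 22.6% of all genes without overlap, so nothing is read from the count. Afp had -0.12, and 0 of the 10 passed. Other probe sets of these genes went both ways. One of Hnf4a had -1.64, with all fPS arrays below all ES arrays, and one of Sparc had 1.30, with all above. Those of Sox17 had -0.61 and 0.47 and that of Gata4 had 0.38, all with overlap. These markers were named after their values were seen. The part of these cells in the phosphatase values was not tested. By the brightest probe set of each gene, 0 markers were at 0 in the lists other than that of ES cells. In each of these lists 3 lay under the array median on every array. They were Thy1, Pdgfrb and Fbln5 for fibroblasts, Elf5, Krt7 and Gata3 for trophoblast, and Hnf4a, Dab2 and Afp for endoderm. In bulk RNA, a change in the share of cells of a type and a change in RNA per cell cannot be told apart. Without fPS replicate 3 and ES replicate 3, which had the highest fibroblast sums, the log2 changes were 3.46 for Dusp9, 2.20 for Dusp1 and 1.28 for Dusp4. The ratio of β-actin signal from the 3' over the 5' end, a sign of RNA integrity, was 2.35 to 4.37 on the fPS and 2.06 to 2.69 on the ES arrays, highest on fPS replicate 2.

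The other MAP kinase phosphatases had log2 changes between -0.13 and 0.35, smaller than those of Dusp1, Dusp4 and Dusp9. The 5 genes were chosen with this contrast in view, so nothing is read from that difference. Of the other 5 MAP kinase phosphatases 4 were named on the array, and by the brightest probe set of each gene 0 were higher, 0 lower and 4 did not pass in limma, where 0.570% of all 14217 genes were higher and 0.288% lower. Their median log2 change was 0.23, against -4.6e-05 over all genes, and 0 of the 4 had groups that did not overlap, against 22.6% of all genes. With 4 genes, nothing is read from these counts. Dusp7, the third cytoplasmic phosphatase that prefers ERK, read 205, 229 and 321 on the fPS arrays and 206, 233 and 143 on the ES arrays, which is a change of 0.35 on the log2 scale (SE 0.259, limma's adjusted p = 0.583). Dusp10, a phosphatase of JNK and p38, had a value of -0.13 on that scale (SE 0.255), with 195.6 ± 24.8 in fPS and 222 ± 69.4 in ES cells (SD, n = 3 each). Dusp8, also of JNK and p38, had a log2 change of 0.21 (SE 0.361), and Dusp2, an inducible nuclear enzyme, of 0.25 (SE 0.290), both with fPS and ES means under the median of every array.

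Of 14 atypical dual-specificity phosphatases, which lack the MAP kinase binding domain, 10 were named. In limma 0 passed in either direction, where 0.570% of all genes were higher and 0.288% lower, so nothing is read from the 0. There were 4 positive signs, 6 negative ones and a median log2 change of -0.13. Dusp22, a regulator of JNK signalling, had 1195 ± 64.6 in fPS and 1604 ± 207 in ES cells (SD, n = 3 each), a log2 change of -0.41. Dusp11, an RNA phosphatase, Dusp19 and Dusp3 had changes of -0.40, -0.38 and 0.15. The ends of the list, named after their values were seen, were Dusp26 with 169 ± 58.0 in fPS and 348 ± 36.7 in ES cells (SD, n = 3 each; log2 change -1.02, limma's adjusted p = 0.115) and Dusp18 with 0.76 by the brightest of its 4 probe sets.

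**Figure D2:**
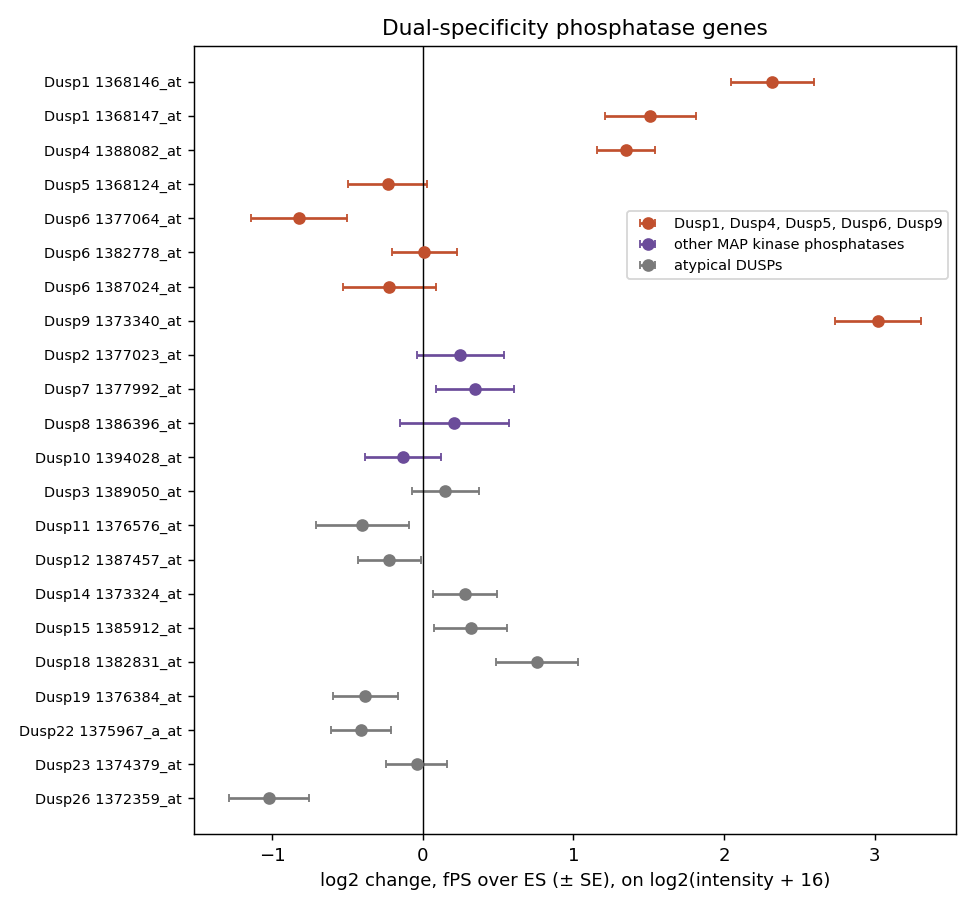
Log2 change of fPS over ES cells on log2(intensity + 16) (x axis, bars are ± 1 SE of the limma fit, n = 3 arrays per group) for the 8 probe sets of the 5 genes (orange), the other MAP kinase phosphatases (purple) and the atypical phosphatases (grey). Dusp9, Dusp1 and Dusp4 lie between 1.35 and 3.02, and the purple and grey points between -1.02 and 0.76.

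The kinases that these phosphatases act on, and those above them, were next set beside the phosphatases. Of 29 genes of the ERK cascade, from adaptors to the kinases and factors that ERK acts on, 22 were named on the array and 0 passed in either direction (median log2 change 0.01, with 11 positive and 11 negative signs). Over all genes 0.570% were higher and 0.288% lower by limma, so nothing is read from the 0. The groups did not overlap for 5 of the 22 cascade genes, a share close to the 22.6% of all genes, so nothing is read from it. In 3 of the 5 (Gab1, Map2k2 and Rps6ka2) the fPS arrays were the lower ones. Gab1, an adaptor of receptor tyrosine kinases, read 787, 665 and 655 on the fPS arrays and 1410.2, 1248 and 2864 on the ES arrays, a log2 change of -1.27 (SE 0.318, limma's adjusted p = 0.103). It passed after the dimmest 30% of probe sets were left out (adjusted p = 0.0459) and with limma's trend and robust settings (adjusted p = 0.0451), in a range up to 0.345 over the alternatives. Map2k2, which encodes MEK2, a target of the inhibitor in the medium, had 233 ± 39.9 in fPS and 453 ± 49.9 in ES cells (SD, n = 3 each). Its log2 change of -0.92 did not pass (limma's adjusted p = 0.0916, 0.0558 to 0.312 over the alternatives), and it was named after its values were seen. The small GTPase Nras, the phosphatase Ptpn11 and the adaptor Shc1 had log2 changes of -0.30, 0.13 and -0.07. Dimmer probe sets gave other values for Ptpn11, at 0.84 (limma's adjusted p = 0.0965), and for the kinase Araf, at 1.32 (adjusted p = 0.0919) against -0.05 by its brightest, and both of these, named after their values were seen, had all fPS arrays above all ES arrays.

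The JNK and p38 cascades, which Dusp1 also acts on, had 14 of 18 genes named and 0 past the threshold (median log2 change 0.18). That 0 stands beside 0.570% of all genes higher and 0.288% lower, so nothing is read from it. The p38 kinase Mapk14 had 399 ± 66.4 in fPS and 571 ± 143 in ES cells (SD, n = 3 each), a log2 change of -0.48, and its activator Map2k3 had 470.3 ± 87.2 and 358 ± 26.9, a change of 0.37. The upstream kinases Map3k7 and Map3k1 had changes of -0.24 and -0.17. Of 10 phosphatases of other families that act on MAP kinases, 0 passed (median -0.07), beside the same shares of all genes. Among them the catalytic subunits of protein phosphatase 2A, Ppp2cb and Ppp2ca, had log2 changes of 0.12 and -0.39, and its scaffold subunits Ppp2r1b and Ppp2r1a of -0.15 and -0.06.

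Among genes that ERK signalling induces, the immediate-early factors Fos, Egr1 and Egr2 were higher in fPS cells by the test, while Egr3, Fosl1 and Ier2 did not pass (log2 changes of 0.23, 0.31 and -0.50). Of 18 such feedback and target genes outside the family 16 were named, of which by the brightest probe set of each gene 4 were higher in fPS cells by limma, 0 lower and 12 did not pass, against 0.570% of all genes higher and 0.288% lower, with a median log2 change of 0.18. The list was chosen with earlier results of these arrays known, so this count is not independent of them. Egr1, an immediate-early transcription factor, read 248, 527 and 334 on the fPS arrays against 38.3, 53.0 and 27.5 on the ES arrays, which is a change of 2.75 on the log2 scale (SE 0.306, limma's adjusted p = 0.0284). Its relative Egr2 rose by 2.16 (SE 0.354, adjusted p = 0.0411), while its other probe set had 0.52 and did not pass. Fos, a subunit of the AP-1 transcription factor, read 1450.1, 2322 and 2694 on the fPS arrays against 29.96, 20.8 and 269.7 on the ES arrays, which is a change of 4.74 on the log2 scale (SE 0.686, limma's adjusted p = 0.0354), and its other probe set, dim on both sides, had -0.27. Spry1, an inhibitor of receptor tyrosine kinase signalling, read 71.6, 116 and 78.5 on the fPS arrays against 24.4, 28.4 and 23.4 on the ES arrays, which is a change of 1.32 on the log2 scale (SE 0.226, limma's adjusted p = 0.0455). Under the alternative settings limma's adjusted p lay between 0.00148 and 0.177 for Egr1, 0.00717 and 0.188 for Egr2, 0.00269 and 0.179 for Fos, and 0.0167 and 0.215 for Spry1. Without fPS replicate 2, fPS replicate 3 or ES replicate 1, 0 of the 16 passed, and without fPS replicate 1, ES replicate 2 or ES replicate 3, 1 did. Of all probe sets 0 to 162 passed in these runs, against 215 with all arrays.

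Of the Sprouty genes and ETS factors that are classical targets of FGF and ERK signalling, as Dusp6 is, only Spry1 was higher by the test among the 6 measured, and 1 dimmer probe set of Etv1 was lower. Spry2 and Spry4 had log2 changes of -0.03 and -0.01. The ETS factors Etv1, Etv4 and Etv5, of the PEA3 family, had -0.78, -0.97 and -1.09 by their brightest probe sets. The Etv1 probe set that passed had a change of -1.59 (SE 0.251, limma's adjusted p = 0.0389), with means of 4.85 in fPS and 48.1 in ES cells, and the remaining 3 of that gene had -1.15, -0.53 and a value near 0. The other probe set of Etv4 had -1.95 (limma's adjusted p = 0.0890), without overlap, and that of Etv5 had -0.33. Etv5 read 588, 335 and 366 on the fPS arrays and 891, 804 and 1036 on the ES arrays, with no overlap and limma's adjusted p = 0.0933 (0.0507 to 0.346 over the alternatives). As with Dusp6, the highest fPS value was on replicate 1 for Etv1, Etv4, Etv5 and Spry2. It was on replicate 1 for Sox2, Klf2 and Cdx2 as well, and not for Fos, Egr1 or Myc. That array also had the highest median of the fPS arrays (45.3, against 39.8 and 36.2), and the source of this order was not tested. Myc had 220 ± 86.6 in fPS and 81.9 ± 52.2 in ES cells (SD, n = 3 each), a log2 change of 1.33 with limma's adjusted p = 0.158. Apart from Fos, Egr1, Egr2 and Spry1 these genes and their probe sets were named after their values were seen.

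**Figure D3:**
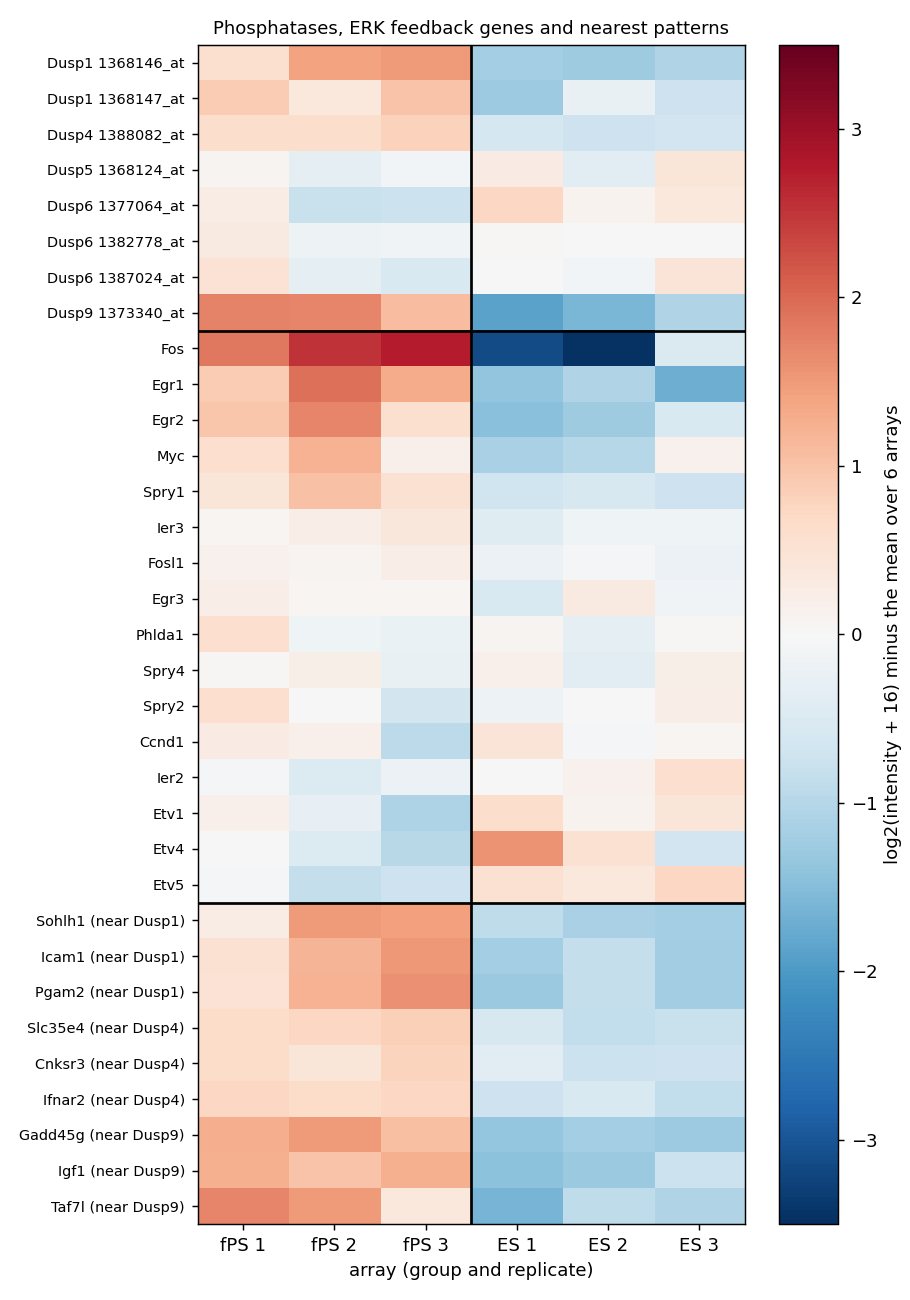
Each cell shows log2(intensity + 16) of a gene on 1 array minus its mean over the 6 arrays (colour scale), with fPS arrays left and ES arrays right of the vertical line. The blocks are the 8 probe sets of the 5 genes (top), the 16 ERK feedback and target genes in order of their change (middle) and the genes nearest in pattern to Dusp1, Dusp4 and Dusp9 (bottom). The rows from Fos to Spry1 of the middle block share the fPS side of Dusp1, Dusp4 and Dusp9.

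For Dusp1, Dusp4 and Dusp9, whose changes were 1 or more on the log2 scale, the nearest patterns were sought among 13982 other named genes. The measure was the root mean square difference over the 6 arrays, after each probe set was centred on its own mean. Nearest to Dusp4 were Slc35e4, a solute carrier, with a difference of 0.0907, Cnksr3, a scaffold protein, with 0.117, and Ifnar2, a subunit of the type I interferon receptor, with 0.130. Slc35e4 read 149.7, 158 and 174 on the fPS arrays against 56.3, 41.9 and 45.1 on the ES arrays. Nearest to Dusp1 were Sohlh1, a germ cell transcription factor, with 0.182, the adhesion molecule Icam1 with 0.196 and the glycolytic enzyme Pgam2 with 0.200. Icam1 read 340.3, 553 and 691 on the fPS arrays against 93.2, 122 and 89.9 on the ES arrays, so that it too was lowest on replicate 1 among the fPS arrays. Dusp9 had neighbours at larger distances: Gadd45g, a stress-inducible growth arrest gene, stood at 0.348, the growth factor Igf1 at 0.431 and Taf7l, a germ cell form of a general transcription factor subunit, at 0.432. These distances describe 6 arrays in 2 groups and were not tested.

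**Figure D4:**
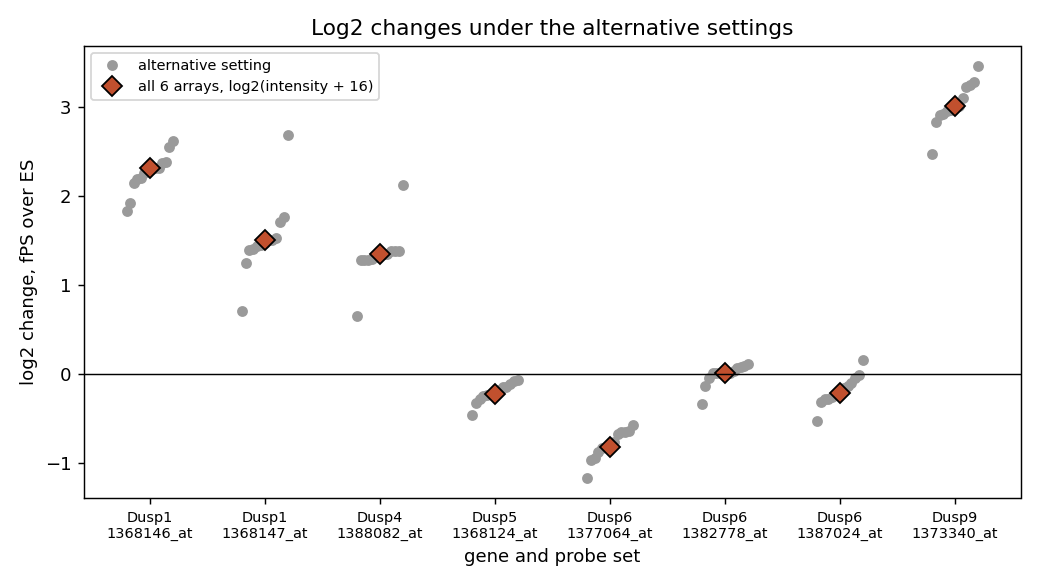
Log2 change of fPS over ES cells (y axis) for each of the 8 probe sets (x axis) with all 6 arrays on log2(intensity + 16) (diamonds) and under each alternative setting (grey points in order of value, including the arrays left out in turn). The points of Dusp1, Dusp4 and Dusp9 all lie above 0, from 0.65 to 3.46, and those of Dusp5 and of Dusp6 by 1377064_at all lie below 0.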

How the data were processed

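Biotin-labelled cRNA was hybridised to Affymetrix 3' arrays, per the labels' protocols. The authors deposited a linear intensity for every probe set on each array. How these were summarised, background-corrected and scaled is not given in the sources used here, and no detection calls were at hand. Of 31099 rows, 57 controls were left out and 31042 probe sets tested. The platform's annotation gave 1 symbol to 20826, several to 436 and none to 9780, and probe sets with several were not named. The 5 genes' identifiers and symbols matched RefSeq (GRCr8). Values were taken as log2(intensity + 16), with no further normalization or filter, and fPS was compared with ES by limma 3.58.1 in R 4.3.3 (lmFit, eBayes), Benjamini-Hochberg adjusted over all probe sets, at a threshold of 0.05. The fit was tested on simulated arrays with 200 probe sets changed. Their noise was independent between arrays and probe sets, without array effects, so the rates may differ on the deposited arrays. On the simulated arrays the fit recovered 5.2% of changes of 1 on the log2 scale, 79.8% of those of 2 and 96% of those of 3. There 4.24% of calls were false. A change near 1 that did not pass is therefore not shown to be absent. Lists were counted by each gene's brightest probe set (highest mean log2). Named genes were all probe sets of the 5, all other MAP kinase phosphatases, up to 4 genes per other list (those past the threshold by size of change, then the brightest) and the 3 nearest patterns, and the text says where others were added. Genes, lists and motifs were chosen with earlier results of these data or the sequences known. No batch is labelled. The number of arrays limits precision. Python 3.11.15 and matplotlib 3.10.9 drew the figures. Alternatives were other pseudocounts, scalings, a filter, moderation settings, a replicate block, arrays left out and the mean over probe sets.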

Additional observations from a re-analysis of the deposited data

How the results depend on the processing

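The log2 changes of Dusp1, Dusp4, Dusp5 and Dusp9, and of Dusp6 by 1377064_at, kept their sign in every alternative run, and those of the other Dusp6 probe sets, near 0, did not. With a pseudocount of 64 the changes were 1.83 and 0.71 for the brighter and the dimmer Dusp1 probe set, 0.65 for Dusp4 and 2.47 for Dusp9, and with 1 they were 2.69 for the dimmer Dusp1 probe set and 2.12 for Dusp4, by the construction of that scale. The mean over probe sets gave 1.92 for Dusp1 and -0.34 for Dusp6, and leaving out ES replicate 3 and fPS replicate 3 together, an alternative chosen after the data were seen, gave 3.46 for Dusp9. Without single arrays the changes ran from 2.15 to 2.62 and from 1.25 to 1.76 for the Dusp1 probe sets, from 1.28 to 1.38 for Dusp4, from -0.47 to -0.073 for Dusp5, from -1.17 to -0.65, -0.14 to 0.11 and -0.53 to -0.011 for Dusp6 (1377064_at, 1382778_at and 1387024_at), and from 2.84 to 3.25 for Dusp9.

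Over all probe sets 215 passed limma's threshold, 376 with arrays centred on their median (152 higher and 224 lower, against 124 and 91), 337 after quantile normalization, 759 without the dimmest 30% of probe sets, 619 with the trend and robust settings, 41 with a pseudocount of 64 and 0 with a pseudocount of 1 (3943 at an unadjusted p under 0.05). Without single arrays it was 0 to 162, and 0 without both replicates 3 (4618 at an unadjusted p under 0.05). Of the ERK cascade 1 gene, Gab1, passed without the dimmest 30% and 1, again Gab1, with the trend and robust settings. Of the ERK feedback and target genes 0 passed with a pseudocount of 1, 0 with 64 and 0 without both replicates 3, where 6, 9 and 7 had an unadjusted p under 0.05, and 0 to 1 without single arrays. The cause was not tested.

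The arrays share replicate numbers that no label explains. Deviations of same-numbered arrays from their group means correlated by 0.151, 0.0200 and 0.0748 for replicates 1, 2 and 3. Each fPS array correlated best with the ES array of its own number, while ES replicate 2 correlated better with fPS replicate 3 (0.0545). Whether the numbers mark pairs or a shared batch cannot be told from these values. The main fit took no pairs, and a replicate block was run as an alternative. With the replicate block 107 probe sets passed in all, 2 of the 8 described here (Dusp1 and Dusp9) and 2 of the ERK feedback and target genes (Egr1 and Fos).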
